A study of Capra hircus with 4 samples.

Results

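The genes described here are 9 muscle genes that answer mechanical strain or mend the fibre, namely XIRP1, XIRP2, FLNC, ANKRD1, ANKRD2, CSRP3, DES, DYSF and MUSTN1. They were measured by RNA-seq in the longissimus dorsi muscle of male Cashmere Goats aged 2 months, in 1 control library and 3 libraries, treatment1 to treatment3, of goats that were given ractopamine, a β-agonist, by mouth at 1 mg/kg body weight. The genes were chosen by name, with values of these libraries known, because XIRP1 and FLNC had been seen high in treatment1. They are 9 of 11208 goat gene names and hold 13 of the 21195 unigenes (assembled transcript sequences) that were paired with a goat gene name. The treated group went through 28 dosing days and 21 withdrawal days. The methods of the study name 3 sampling times for sequencing, the labels tie no library to a time, and the design text calls the treated libraries replicates, so time and replicate cannot be told apart. The labels do not say whether the libraries came from single or pooled goats.

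Striated muscle carries its force through the Z-discs, which anchor actin and titin, and through costameres, which tie the outer myofibrils to the sarcolemma. Proteins at these sites sense load. When a fibre tears, some of them gather at the damaged stretch, while calcium-triggered vesicle fusion seals the membrane. XIRP1, XIRP2 and FLNC are actin-binding proteins of these sites, CSRP3 (muscle LIM protein) sits at the Z-disc, ANKRD1 and ANKRD2 bind titin, DES forms the intermediate filaments between Z-discs, DYSF (dysferlin) mends the sarcolemma, and MUSTN1 is a small protein of the musculoskeletal system.

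The 2 Xin genes share the Xin repeat, an actin-binding unit whose core is tryptophan, leucine and phenylalanine. In the longest reading frames of the paired unigenes, the 3 codons followed each other 5 times in XIRP1 and 10 times in XIRP2. The XIRP1 frame was open at its first base and may be incomplete, so its number is that of the assembled part. Of the 11208 goat genes, 207 (1.85%) held this run at least once, and XIRP1 and XIRP2 were the only ones (0.0178%) with 5 or more. The windows below are shown because the 2 genes share this unit and yet had different values in treatment1. Each is 300 bases of the coding strand of the deposited unigene, 5′ to 3′, and the capitals mark the tryptophan, leucine and phenylalanine codons. The XIRP1 window covers bases 1726 to 2025 of unigene c13178_g1 and holds 2 runs. The XIRP2 window covers bases 2637 to 2936 of c13787_g1 and holds 3 runs. Positions count from the 5′ end of the unigene in the direction of its reading frame, and no chromosome position is given because the authors' files place the unigenes on no genome.
XIRP1: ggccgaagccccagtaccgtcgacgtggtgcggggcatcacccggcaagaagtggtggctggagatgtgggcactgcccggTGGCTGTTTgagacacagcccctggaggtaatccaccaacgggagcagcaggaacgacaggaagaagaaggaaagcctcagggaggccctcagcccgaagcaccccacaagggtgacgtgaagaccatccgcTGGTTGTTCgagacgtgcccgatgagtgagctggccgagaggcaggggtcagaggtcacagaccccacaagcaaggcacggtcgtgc
XIRP2: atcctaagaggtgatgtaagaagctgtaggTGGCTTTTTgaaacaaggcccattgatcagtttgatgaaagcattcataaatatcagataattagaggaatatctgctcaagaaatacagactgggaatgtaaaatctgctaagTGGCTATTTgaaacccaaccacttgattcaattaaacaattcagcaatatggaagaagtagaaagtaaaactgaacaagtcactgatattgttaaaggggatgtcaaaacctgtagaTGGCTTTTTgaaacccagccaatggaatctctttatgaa

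The libraries differed in what they could show. The total expected counts were 6675218 to 8533046 per library, but the share on unigenes with a goat gene name was 71.3% in the control library, 50.1% in treatment1, 1.82% in treatment2 and 40.4% in treatment3. Treatment2 held only 133809 such counts, of which 15.3% were on the single gene TFCP2L1 (at most 0.431% elsewhere). Skeletal muscle was present in all 4 libraries: CKM, the muscle creatine kinase, was at 36464 to 82090 counts per 1000000 named counts (CPM), and TNNT3, the fast troponin T, 10520 to 32959. MYH2, another measured fibre marker, was at 374 CPM in the control library, 61.4 in treatment1, 209 in treatment2 and 300 in treatment3. The gene name ACTA1 was at 21.4 CPM or less, and the unigenes paired with ACTA2, at 24725 to 55399 CPM, include one whose nucleotide match is skeletal alpha actin. Markers of other cells were not even. The 4 measured fibroblast markers summed to 114 CPM in the control library, 168 in treatment1, 2220 in treatment2 and 270 in treatment3. In the same order, the 3 measured adipocyte markers summed to 14.8, 111, 859 and 28.5, and the 5 endothelial markers to 309, 201, 837 and 398. PDGFRA, one of the fibroblast markers, was at 0.329 in the control library and had 0 counts in the treated libraries. The 3 measured myeloid markers summed to 7.47 or less, with 0 counts of CD68 in treatment2. The 1 measured cardiac marker, TNNT2, was at 37.4 or less. In treatment2, 0 counts allow up to 22.4 CPM. In such tissue RNA, fewer cells of a type and less RNA per cell cannot be told apart.

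Levels are given in CPM as above, where 0 counts allow up to 22.4 in treatment2 and 0.493 in the control library, and the x-fold is the level in a treated library over that in the control library. With 1 control library, the x-folds carry exact 95% intervals for counting error only and have no replicate check, and all 3 share the control library. The limits were those of the study, above 3 (higher) and below 0.6 (lower). The median x-fold over 7544 goat genes with a mean of at least 10 counts was 0.762, 0.659 and 0.724 in treatment1, treatment2 and treatment3, so x-folds between these values and 1 change side when read against the median gene.

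The 9 genes together held 3.69% of the named counts in the control library, 5.48% in treatment1, 1.78% in treatment2 and 1.69% in treatment3. In treatment1 their x-folds ran from 0.287 to 8.74, with 2 higher (XIRP1 and ANKRD1), 3 lower and 4 within the limits, where 4.51% of all genes tested were higher and 36.5% lower. As the genes were chosen on XIRP1 in this library, nothing is read from that count. ANKRD1 was the only further one above 3. In treatment2 they ran from 0.0559 to 1.12, with 0 higher and 7 lower, against 10.5% and 47.1% of all genes. In treatment3 they ran from 0.0642 to 0.889, with 0 higher and 7 lower, against 2.19% and 37.9%. In treatment2, 1 count was already 7.47 CPM, so genes with low control levels fall at 0 or at a high x-fold there. Of all genes tested, 20.7% were below CSRP3, the lowest of the 9 in treatment2. The shares of all genes in treatment2, here and below, are thus not a like background for the 9 genes. The median x-fold of the 9 genes was 1.02, 0.216 and 0.210. The plot of x-folds shows treatment1 apart from the other treated libraries for most of the genes.

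**Figure D1:**
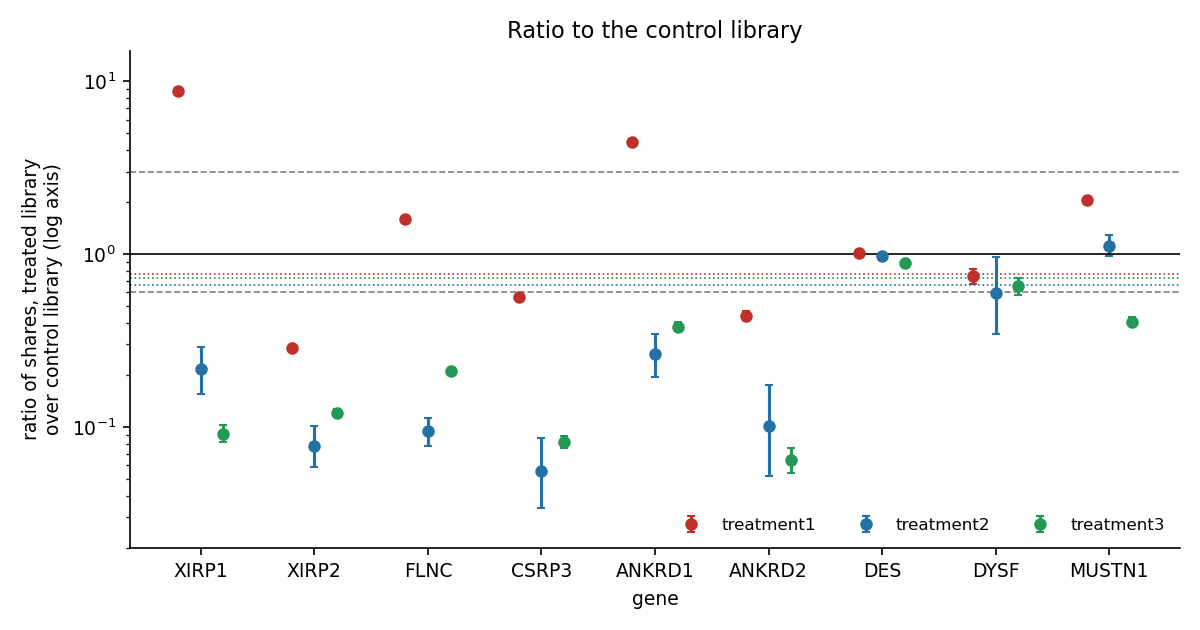
X-fold of each gene (treated library over control library, log axis); points are single libraries, bars exact 95% intervals for counting error, dashed lines the limits 3 and 0.6, and dotted lines the median of 7544 goat genes in each library. XIRP1 was at 8.74 in treatment1 but at 0.216 and 0.0913 in treatment2 and treatment3, while DES stayed between 0.889 and 1.02.

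The scaling bears on these values. Counts on 25 paired unigenes of the mitochondrial genome, which carry no gene name, were left out of the totals. With them in the total, the x-folds of XIRP1 were 6.56, 0.00600 and 0.0537 and those of DES 0.768, 0.0271 and 0.523, and all 9 genes were lower in treatment2 and treatment3. XIRP1 and ANKRD1 (3.34) stayed higher in treatment1. Differences between the genes within a library do not depend on this total.

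XIRP1, which gathers at damaged stretches of a fibre, was at 1453 CPM in the control library, 12696 in treatment1, 314 in treatment2 and 133 in treatment3. Treatment1 was thus above the control library and the other treated libraries below it. The x-fold was 8.74 (8.54 to 8.94) in treatment1, a value that was used to choose the genes, and 0.216 (0.156 to 0.292) and 0.0913 (0.0819 to 0.102) in the other two. Treatment1 held 95.7 times (86.2 to 106) the level of treatment3, where the median over genes was 1.01. XIRP1 took 23.2% of the counts of the 9 genes in treatment1 and 3.94% in the control library. In treatment2 it rested on 42 counts. Both XIRP1 unigenes were above the control library in treatment1, the longer with an x-fold of 8.77 and the shorter, of 437 bases, with 3.42 (2.52 to 4.71).

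XIRP2, the larger Xin protein, was at 5491 CPM in the control library, 1577 in treatment1, 426 in treatment2 and 666 in treatment3. The control library was the highest, and all 3 treated libraries were below it. The x-folds were 0.287 (0.279 to 0.295), 0.0776 (0.0587 to 0.101) and 0.121 (0.116 to 0.127). Treatment1 was again the highest of the treated libraries, by 2.37 times (2.25 to 2.50) over treatment3. Between the Xin genes, the level per kb of XIRP2 was above that of XIRP1 in the control library (451 against 229 CPM per kb), while in treatment1 the order was turned (129 against 2001).

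FLNC, the muscle filamin that crosslinks actin and binds Xin proteins, was at 9114 CPM in the control library, 14622 in treatment1, 859 in treatment2 and 1917 in treatment3. As for XIRP1, treatment1 was above the control library and the others were below it. The x-fold of 1.60 (1.59 to 1.62) in treatment1, which was used to choose the genes, lay within the limits. In treatment2 and treatment3 it was 0.0943 (0.0778 to 0.113) and 0.210 (0.204 to 0.216).

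The summed value of FLNC hides a difference within the gene. It was assembled in 3 unigenes, of which c12068_g2 (7545 bases) held the 5′ part with a reading frame open at its end, and c12068_g1 (1597 bases) the 3′ part with the stop codon. Another, c11851_g1, matched the goat protein at 84% identity and held 251 counts or fewer. The 5′ unigene had 40922 counts in the control library, 14153 in treatment1, 28 in treatment2 and 1757 in treatment3. The 3′ unigene had 14499, 43952, 87 and 3414 counts. In treatment1, therefore, the 5′ part was below the control library, with an x-fold of 0.527 (0.517 to 0.538), and the 3′ part above it, with 4.62 (4.54 to 4.71). In treatment2 and treatment3, both parts were below the control library, at 0.0311 and 0.0969 for the 5′ part and 0.273 and 0.531 for the 3′ part.

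DYSF, the membrane repair protein, was split in the same way, into c13689_g1 (4957 bases, 5′) and c13689_g2 (2149 bases, 3′). The ends where the parts of FLNC and DYSF meet are shown because the unigenes of each gene overlap there. Both DYSF unigenes matched the goat protein at 92 to 93% identity. The 4 stretches are 90 bases of the coding strand each, 5′ to 3′, the last bases of the 5′ unigene and the first of the 3′ unigene, and the capitals mark the identical overlap, 25 bases in FLNC and 66 in DYSF.
FLNC, 5′ unigene: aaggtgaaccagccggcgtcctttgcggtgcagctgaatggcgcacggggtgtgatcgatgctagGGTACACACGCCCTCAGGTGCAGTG
FLNC, 3′ unigene: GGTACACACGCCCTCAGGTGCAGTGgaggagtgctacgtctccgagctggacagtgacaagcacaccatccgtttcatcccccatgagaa
DYSF, 5′ unigene: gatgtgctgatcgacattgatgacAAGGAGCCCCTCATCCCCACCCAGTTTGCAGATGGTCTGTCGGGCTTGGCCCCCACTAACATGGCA
DYSF, 3′ unigene: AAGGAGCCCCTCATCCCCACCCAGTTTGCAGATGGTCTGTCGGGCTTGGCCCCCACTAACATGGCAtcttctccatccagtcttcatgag

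DYSF summed over both parts was at 213 CPM in the control library, 158 in treatment1, 127 in treatment2 and 139 in treatment3. All treated libraries were below the control library, but little apart from the median gene, with x-folds of 0.742 (0.674 to 0.817), 0.598 (0.347 to 0.961) and 0.652 (0.580 to 0.732). The second rested on 17 counts, and its interval reaches across the lower limit. The 5′ part of DYSF had x-folds of 0.187, 0.190 (0.0392 to 0.558, on 3 counts) and 0.286. The 3′ part had 1.43 (1.27 to 1.61), 1.10 (14 counts) and 1.11 (0.956 to 1.28), so that the 5′ part alone was below the control library.

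The same shift towards the 3′ end was measured in other split genes. The 3′ over 5′ count ratio of FLNC, relative to the control library, was 8.76, 8.67 and 5.48 in treatment1, treatment2 and treatment3, and that of DYSF was 7.62, 5.15 and 3.85 (0.5 counts added). For 47 other goat genes split into a 5′ and a 3′ unigene with at least 50 control counts each, the median was 6.57 in treatment1 and 2.94 in treatment3, and the value was above 1 in 45 and 44 genes. In treatment2, 7 of the 47 had 0 counts in both parts, and the other 40, on few counts each, had a median of 1.98, with 27 above 1 (this restriction was chosen after seeing the data). FLNC was exceeded by 12, 6 and 8 of them. Long genes were also lower in the treated libraries. The median x-fold in treatment1 was 1.27 for genes with a longest unigene under 1 kb, 0.820 for 1 to 2 kb, 0.688 for 2 to 4 kb, 0.589 for 4 to 8 kb and 0.497 over 8 kb, and in treatment2 it went from 1.27 to 0.315. XIRP2, with 12175 bases, belonged to the last class. The longest XIRP1 unigene (5907 bases) had a reading frame open at its first base and 2418 bases after that frame, the stop codon included. The part of this shift in the x-folds of the 9 genes was not tested. DES, whose class had a median of 0.589, 0.429 and 0.541, was above that median in each treated library.

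**Figure D2:**
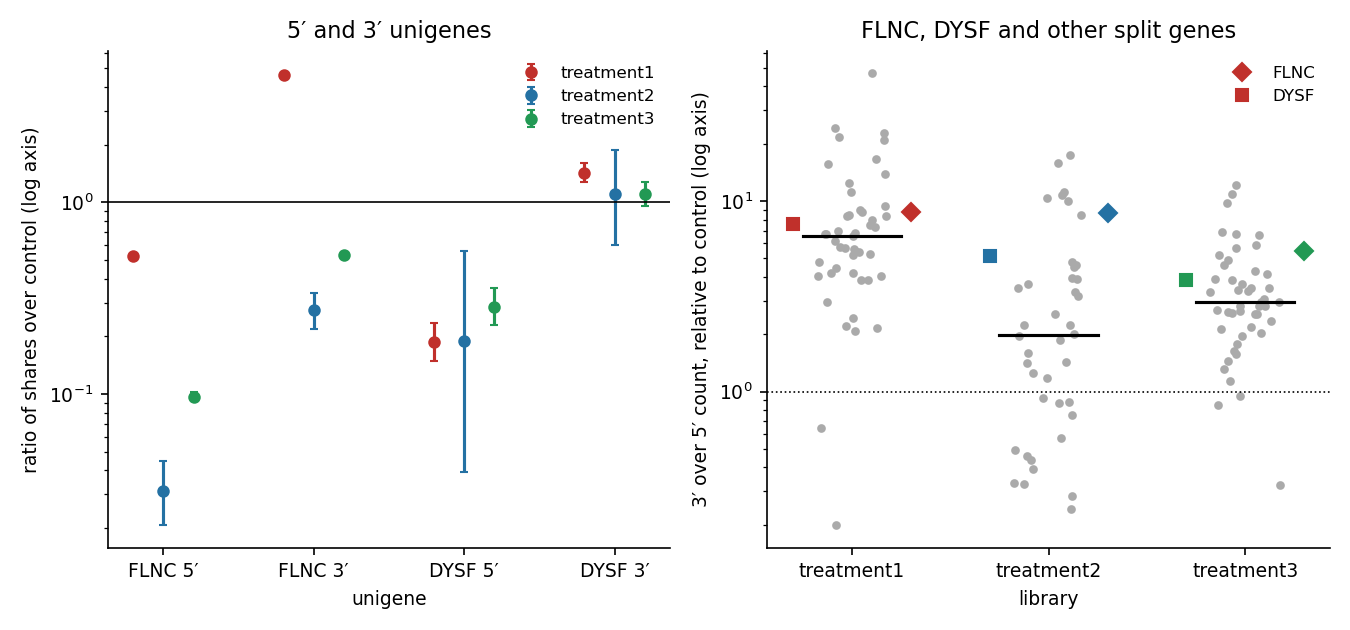
Left, x-fold (log axis) of the 5′ and 3′ unigenes of FLNC and DYSF in each treated library, with exact 95% intervals for counting error; right, 3′ over 5′ count ratio relative to the control library (log axis) of FLNC (diamonds), DYSF (squares) and other split genes with at least 1 count in the library (grey points, bar at the median). The 3′ unigene had the higher x-fold in every library for both genes, and the medians of the other genes were 6.57, 1.98 and 2.94 over 47, 40 and 47 genes.

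CSRP3, the muscle LIM protein, was at 2674 CPM in the control library, 1518 in treatment1, 149 in treatment2 and 219 in treatment3. The control library was the highest, and treatment1 lay between it and the rest. The x-folds were 0.568 (0.551 to 0.585), 0.0559 (0.0341 to 0.0864) and 0.0821 (0.0755 to 0.0891), with 20 counts behind the second. Against the median gene, the first became 0.745 and left the lower limit. In treatment2 its interval overlapped those of XIRP2, FLNC and ANKRD2. Its single unigene of 1013 bases held a whole reading frame, and the median of its length class was 0.820, 0.792 and 0.820.

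The titin-binding ankyrin repeat genes differed from each other. ANKRD1, which in muscle is induced by stretch, was at 1422 CPM in the control library, 6334 in treatment1, 374 in treatment2 and 542 in treatment3. ANKRD2 was at 890, 392, 89.7 and 57.1. Treatment1 was thus above the control library for ANKRD1 and below it for ANKRD2, and treatment2 and treatment3 were below it for both. The x-folds of ANKRD1 were 4.45 (4.35 to 4.57), 0.263 (0.195 to 0.347) and 0.381 (0.360 to 0.403). Those of ANKRD2 were 0.440 (0.416 to 0.466), 0.101 (0.0521 to 0.176) and 0.0642 (0.0543 to 0.0753). Of the genes tested, 22.6, 21.5 and 0.530% had a lower x-fold than ANKRD2 in treatment1, treatment2 and treatment3. The share in treatment2 includes genes with 0 counts there.

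DES, the intermediate filament that links the Z-discs, was at 14273 CPM in the control library, 14610 in treatment1, 13908 in treatment2 and 12691 in treatment3. It was the gene of the 9 whose x-fold lay closest to 1 in each treated library. The x-folds were 1.02 (1.01 to 1.03), 0.974 (0.930 to 1.02) and 0.889 (0.878 to 0.900). Read against the median gene they were 1.34, 1.48 and 1.23, so that the direction depends on the scale. DES held 38.7% of the counts of the 9 genes in the control library, 26.7% in treatment1, 78.1% in treatment2 and 75.0% in treatment3.

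MUSTN1, which is active in growing and regenerating muscle, was at 1388 CPM in the control library, 2851 in treatment1, 1554 in treatment2 and 565 in treatment3. Treatment3 was the only one below the control library. The x-folds were 2.05 (2.00 to 2.11), 1.12 (0.971 to 1.29) and 0.407 (0.385 to 0.430). MUSTN1 was the only one of the 9 genes with a unigene under 1 kb, a class with medians of 1.27, 1.27 and 1.25, and it was above that median in treatment1 and below it in treatment2 and treatment3.

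Per kb, the control library gave an order without overlapping intervals, from DES (3308 CPM per kb) through CSRP3 (2639), MUSTN1 (1449), FLNC (912), ANKRD1 (756), ANKRD2 (639), XIRP2 (451) and XIRP1 (229) to DYSF (29.9). In treatment1, ANKRD1 (3366) reached DES (3387) with overlapping intervals, MUSTN1 (2976) and XIRP1 (2001) followed, and CSRP3 (1499) and FLNC (1463) overlapped. In treatment3, DES (2942) and MUSTN1 (590) led, and XIRP1 (20.9) overlapped with DYSF (19.5) at the end. In treatment2, DES (3224) and MUSTN1 (1623) also led, and every further neighbour overlapped with the next. The plot of levels per kb shows the wide intervals of this library.

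**Figure D3:**
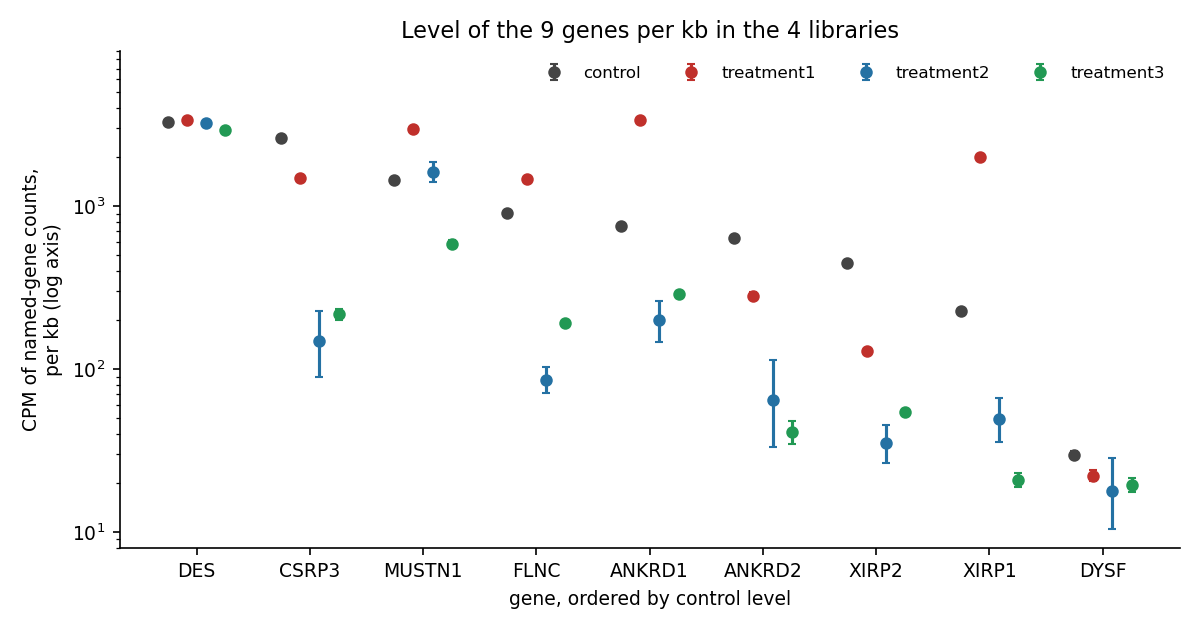
Level of each gene in CPM of named-gene counts per kb of unigene (log axis) in the 4 libraries, genes ordered by the control library; bars are exact 95% intervals for counting error. DES stood between 2942 and 3387 in all libraries, whereas XIRP1 spanned 20.9 to 2001.

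XIRP2, ANKRD2 and CSRP3, 3 of the 9 genes, were below 0.6 in each of the 3 treated libraries, as were 18.3% of all genes tested. In treatment2 and treatment3, which the choice of XIRP1 and FLNC did not rest on but which share its control library, 6 of the 9 were below 0.6 (XIRP1, XIRP2, FLNC, ANKRD1, ANKRD2 and CSRP3), against 26.0% of all genes. With DYSF, 4 of the 9 were below the control library in all 3 treated libraries, against 44.8%. These shares of all genes include treatment2, with the depth limit given above. When the 3 treated libraries were fitted together against the control library by the quasi-likelihood test of edgeR, 0 of 7544 genes (0%) passed an adjusted p of 0.05, and 1000 had an unadjusted p below it. This fit assumes that the control library varies like the treated ones. DESeq2 called 3 genes, all higher and none of them among the 9. XIRP2 had the smallest adjusted p of the 9 genes, 0.188, with a log2 change of -2.62 ± 0.82 (SE), and was lower in 3 of 3 treated libraries.

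The calls depended on the libraries in the fit. Treatment1, in which XIRP1 and FLNC had been seen high, was the highest treated library for each of the 9 genes. Leaving it out therefore moves the log2 change of each of them down and favours lower calls. All 9 log2 changes were negative without it, against 6 with all 3 treated libraries. The fit without treatment1 thus cannot decide whether any of the 9 genes was lower, and nothing is concluded from its calls among them. Without treatment1, edgeR called 23 genes (0.305%), of which 14 were higher and 9 lower, and CSRP3 and ANKRD2 were among the lower ones. The log2 change of CSRP3 in that fit of treatment2 and treatment3 was -3.84 ± 0.95 (SE, edgeR adjusted p = 0.0252). That of ANKRD2 was -3.65 ± 0.94 (edgeR adjusted p = 0.0346). The adjusted p was 0.109 for XIRP2, 0.199 for XIRP1 and 0.257 for FLNC, with log2 changes of -3.32, -2.73 and -2.71. DES (-0.10 ± 1.05) and MUSTN1 (-0.40 ± 0.95) did not pass either. With all 3 treated libraries, CSRP3 was at -2.08 ± 0.99 (edgeR adjusted p = 0.380) and ANKRD2 at -2.28 ± 0.86 (edgeR adjusted p = 0.267). In treatment2, one of the libraries left without treatment1, CSRP3 rested on 20 counts and ANKRD2 on 12. Treatment2 was also the library with the raised fibroblast and adipocyte markers, and the part of these markers in the log2 changes was not tested. Without treatment2 edgeR called 31 genes higher and 250 lower, and without treatment3 it called 9 and 11, none of them among the 9.

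The genes whose x-folds came nearest to those of XIRP1, FLNC and DES were searched among 4417 goat genes with at least 100 control counts, by the Euclidean distance of the 3 log2 x-folds. Nearest to XIRP1 were RASD1, a small G protein (distance 1.06), TNFRSF12A, the TWEAK receptor (1.32), and ASB5, a SOCS box protein (1.90). TNFRSF12A had 345 counts in the control library, 1730 in treatment1, 2 in treatment2 and 31 in treatment3, and RASD1 had 215, 1180, 0 and 9. For RASD1, and for RELL1 below, the term of treatment2 in the distance rests on 0 counts and the 0.5 counts added, so the distance is not exact. Nearest to FLNC were DNAJA4, a co-chaperone (0.388), the unigenes paired with TLR9 (0.423) and RELL1 (0.872). Nearest to DES were ANAPC16 (0.129), UBE2A (0.134) and LOC102171927 (0.140). In treatment2, DNAJA4 had 1 count and TLR9 5, and ANAPC16, UBE2A and LOC102171927 had 8, 5 and 3. With so few counts, as with the 2 of TNFRSF12A, the term of treatment2 carries a large counting error, and the ranks are not firm. Among the 9 genes, DES and DYSF (0.925) and ANKRD2 and CSRP3 (1.01) were closest. The family pairs were far apart, with 5.16 between XIRP1 and XIRP2 and 4.42 between ANKRD1 and ANKRD2. These distances rest on 3 values that share the control library.

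The partners of the 9 genes were described in 4 lists, of which the members themselves were left out. Of 27 Z-disc and titin-binding partners tested, 1 was higher and 5 lower in treatment1 (median x-fold 0.900), 0 and 22 in treatment2 (0.255), and 0 and 16 in treatment3 (0.485). The lower ones were 18.5, 81.5 and 59.3% of the list, against 36.5, 47.1 and 37.9% of all genes tested. Higher genes made up 3.70, 0 and 0% of the list, against 4.51, 10.5 and 2.19% of all genes tested. The higher one, TRIM63, a ubiquitin ligase of the sarcomere, was named after its value was seen. PDLIM7, a PDZ-LIM protein, was at 423, 638, 396 and 1137 CPM in the control library and treatment1, treatment2 and treatment3. TCAP, the titin cap, was at 2178, 3080, 463 and 2296. At the other end, NRAP, which anchors actin in growing myofibrils, was at 7365, 3810, 613 and 1445, and SYNPO2, a filamin-binding Z-disc protein, at 2011, 453, 59.8 and 539. Both were thus below the control library in every treated library.

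Of 19 sarcolemma repair partners of dysferlin tested, 3 were higher and 4 lower in treatment1 (median x-fold 1.11), 7 and 4 in treatment2 (1.34), and 1 and 3 in treatment3 (1.13). The higher ones were 15.8, 36.8 and 5.26% of the list, against 4.51, 10.5 and 2.19% of all genes tested, and the lower ones 21.1, 21.1 and 15.8%, against 36.5, 47.1 and 37.9%. The difference from the Z-disc list was not tested. The 3 higher ones in treatment1 were ANXA1, ANXA2 and S100A11, and S100A11 was the one in treatment3 (ANXA1 and S100A11 were named after their values were seen). The interval reached across the limit of 3 for ANXA1 in treatment1 (4.09, 2.47 to 7.01) and S100A11 in treatment3 (4.08, 2.47 to 6.86). It also did for EHD2 in treatment2 (3.02, 1.58 to 5.28), named after its value was seen. ANXA2, a calcium-dependent membrane-binding protein, was at 28.4, 160, 314 and 66.7 CPM in the control library and treatment1, treatment2 and treatment3. EHD1, which acts in vesicle traffic, was at 30.2, 43.6, 232 and 70.1. The lowest were ANXA6, at 231, 105, 89.7 and 162, and PDCD6IP, a membrane scission adaptor, at 87.6, 54.9, 29.9 and 44.1. Both ANXA2 and EHD1 are also made by non-muscle cells, whose markers were highest in the same treatment2, and their part was not tested.

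Of 26 partners of the desmin network and the costamere, 2 were higher and 12 lower in treatment1 (median x-fold 0.756), 1 and 14 in treatment2 (0.526, or 0.848 with the 4 genes at 0 counts set to the floor of 3 counts), and 0 and 9 in treatment3 (0.652). The lower ones were 46.2, 53.8 and 34.6% of the list, against 36.5, 47.1 and 37.9% of all genes. The higher ones made up 7.69, 3.85 and 0% of the list, against 4.51, 10.5 and 2.19% of all genes. They were CRYAB and LIMS1 in treatment1, named after their values were seen, and VIM in treatment2. VIM, the intermediate filament of non-muscle cells, was at 111, 234, 1487 and 213 CPM in the control library and treatment1, treatment2 and treatment3, and NES, a filament partner of desmin, at 26.9, 45.4, 74.7 and 34.5. SNTB1, a syntrophin, had 616, 23, 0 and 88 counts, and UTRN, the relative of dystrophin, 38, 2, 0 and 7.

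Of 16 genes of the stretch pathway of YAP, TEAD and SRF, 3 were higher and 5 lower in treatment1 (median x-fold 0.936), 3 and 7 in treatment2 (0.774, or 1.02 with the 3 genes at 0 counts set to that floor), and 1 and 2 in treatment3 (0.904). The lower ones were 31.2, 43.8 and 12.5% of the list, against 36.5, 47.1 and 37.9% of all genes, and the higher ones 18.8, 18.8 and 6.25%, against 4.51, 10.5 and 2.19%. Those higher were CYR61, CTGF and ABRA in treatment1, CTGF, MKL2 and TAGLN2 in treatment2, and CTGF in treatment3 (all but TAGLN2 were named after their values were seen). The interval reached across the limit of 3 for CTGF in treatment2 (9.75, 1.80 to 34.9, on 3 counts) and in treatment3 (3.06, 1.46 to 6.60), and for MKL2 (4.37, 2.04 to 8.37). TAGLN2, an actin-binding protein, was at 13.1, 38.3, 172 and 33.7 CPM in the control library and treatment1, treatment2 and treatment3, and AMOTL2, a binding partner of YAP, at 12.8, 24.1, 22.4 and 20.0. SRF, the serum response factor, had 830, 72, 0 and 221 counts, and TEAD1 had 401, 53, 4 and 30. In treatment1, both factors were thus below the control library, while CYR61, CTGF and ABRA were above it, as were XIRP1 and ANKRD1. The part of this pathway in the values of XIRP1 and ANKRD1 was not tested. The plot of companion genes shows the Z-disc genes of treatment2 mostly under the lower limit.

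**Figure D4:**
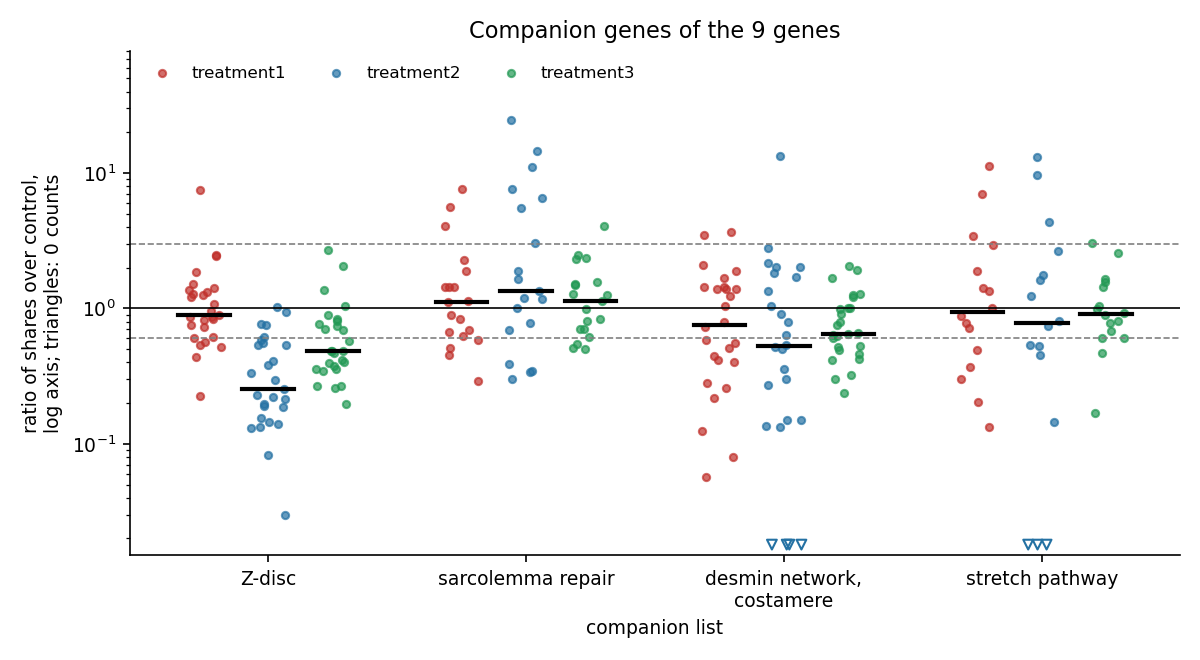
X-fold (log axis) of the tested genes of 4 companion lists in each treated library, the 9 genes left out; points are genes, black bars list medians, triangles genes with 0 counts, and dashed lines the limits 3 and 0.6. The Z-disc medians were 0.900, 0.255 and 0.485, and the sarcolemma repair medians 1.11, 1.34 and 1.13.

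The fibre type lists differed from gene to gene. Of the 8 slow fibre genes tested, 1 was higher and 3 lower in treatment1, 0 and 5 in treatment2, and 0 and 5 in treatment3, with median x-folds of 0.762, 0.269 and 0.524, where the medians over all genes were 0.762, 0.659 and 0.724. The lower ones were 37.5, 62.5 and 62.5% of the list, against 36.5, 47.1 and 37.9% of all genes tested. The higher ones were 12.5, 0 and 0%, against 4.51, 10.5 and 2.19%. TNNC1, the slow troponin C, had x-folds of 2.33, 1.54 and 1.83, whereas MYL2, the slow regulatory light chain, had 0.266, 0.222 and 0.216 (both were named after their values were seen). Of the 6 fast fibre genes tested, 1 was higher and 1 lower in treatment1, 0 and 4 in treatment2, and 2 and 0 in treatment3, with medians of 1.47, 0.468 and 1.46. Against the same shares of all genes, the lower ones were 16.7, 66.7 and 0% of this list and the higher ones 16.7, 0 and 33.3%. Of the satellite cell and regenerating fibre markers, CDH15 was at 29.2, 26.8, 37.4 and 13.3 CPM in the control library and treatment1, treatment2 and treatment3, MYF5 at 17.1, 6.51, 0 and 13.0, and MYH3, the embryonic myosin, at 7.47 or less. The part of fibre type and of these markers in the values of the 9 genes was not tested.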

How the data were processed

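RNA-seq was performed on 1 control and 3 treated libraries of goat longissimus muscle, and an assembly by the authors gave 59774 unigenes and 66307 transcripts. The submitters' processing notes name FastQC 0.10.1, and the assembler and counting tool are not given in the sources used here. The authors deposited the expected count (all values whole), TPM and FPKM of each unigene and transcript. A deposited table pairs unigenes with goat genes and gives the percent identity of each match. The authors' tables of FPKM classes were not used.

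Expected counts were summed over the unigenes of each goat gene name and divided by the total of the 21195 named unigenes (6086312, 3991046, 133809 and 2697657 counts in the control library and treatment1, treatment2 and treatment3). The 25 paired unigenes without a gene name took 23.8, 42.8, 97.9 and 55.2% of the paired counts and entered no total or test. Shares and their ratios carry exact Clopper-Pearson 95% intervals, which cover counting error only. PCR reads without molecular identifiers are not independent molecules. Unigenes of 1 gene can share reads, and 31-base words shared with other unigenes were found only between the 2 DYSF unigenes (0.731 and 1.70%). The fit used edgeR 4.0.16 (quasi-likelihood, 2-sided, Benjamini-Hochberg over 7544 genes), with DESeq2 1.42.0 on rounded counts as an alternative. The SE given with an edgeR log2 change was derived from the test, as the size of the change over the square root of its F statistic. Scripts ran in Python 3.11.15 with scipy 1.17.1 and in R 4.3.3, and were tested on simulated data. p-values rest only on the spread between the treated libraries in the fit, as 1 control library gives none.

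The 9 genes and the companion and marker lists were chosen with earlier results of these data known. All 9 genes are named, with the 2 highest and 2 lowest genes by median x-fold in each companion list (at least 30 control counts) and the 3 nearest genes to XIRP1, FLNC and DES. Alternatives were other totals (all unigenes, median gene, TMM), FPKM or TPM in place of counts, single unigenes, a minimum identity of 80%, the transcript table, other limits and minimum counts, and leaving out each treated library. Protein and promoter sequences were not used here.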

Additional observations from a re-analysis of the deposited data

Results flagged for a closer look

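Among the unigenes without a goat gene pairing, 12 matched 1 of the 9 genes by their nucleotide description, and for 5 of these the whole interval of the x-fold in treatment1 lay above 1. These unigenes entered no comparison above. The one that matched XIRP1 (c2114_g1, 498 bases) had 4 counts in the control library and 14 in treatment1, an x-fold of 5.34 (1.68 to 22.3). The 2 that matched ANKRD1 had x-folds of 2.65 (2.13 to 3.32) for c11318_g1, with 131 and 228 counts, and 2.51 (1.77 to 3.59) for c9895_g1, with 54 and 89. As the 5 unigenes were picked for lying above the control library, their direction in treatment1 adds nothing to that of the paired unigenes. For CSRP3, whose paired unigene had an x-fold of 0.568 there, c1217_g1 was at 3.24 (1.33 to 8.68) with 8 and 17 counts and c44195_g1 at 4.19 (1.24 to 18.1) with 4 and 11. Both CSRP3 matches are to a genomic region of the gene and not to its transcript, and of the other unigenes that matched CSRP3, c11193_g1 was at 1.16 (0.942 to 1.43) with 214 and 163 counts and c10061_g1 at 0.563 (0.414 to 0.757) with 168 and 62. In treatment2, these 5 unigenes had 0 counts.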

How the results depend on the processing

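The call of 2 of the 9 genes higher in treatment1, and 0 in treatment2 and treatment3, was kept under every other total, FPKM, TPM and the transcript table, and became 3 in treatment1 with the most abundant unigene of each gene or with limits of 2 and 0.5. As XIRP1 was chosen on treatment1, this shows only that scaling did not move the count. The 7 lower genes in treatment2 became 9 with all unigenes, FPKM or TPM, and 6 with the median gene or TMM. The 7 in treatment3 became 9 with all unigenes, FPKM or TPM. With the 5′ unigenes of FLNC and DYSF alone, chosen after seeing the data, 5 of the 9 were lower in treatment1 in place of 3. DYSF in treatment2 turned from 0.598 to 1.10 with its most abundant unigene, which is the 3′ part. Limits of 2 and 0.5 gave 784, 1302 and 448 goat genes higher in treatment1, treatment2 and treatment3, against 340, 795 and 165. Setting the median gene to 1 gave 585, 1310 and 373 higher, and 1817 and 1535 lower in treatment1 and treatment3, against 2751 and 2857 (3554 in treatment2). No minimum above 1 count gave 946, 1384 and 569 higher and 4632, 6218 and 4667 lower, and a mean of at least 50 counts gave 177, 310 and 61 higher and 1467, 2077 and 1521 lower. In the joint fit, DESeq2 called 3 genes higher, and edgeR without the minimum 51 higher and 152 lower. Leaving out each treated library gave 9 to 31 genes higher, 9 to 250 lower and 0 to 2 of the 9 genes. Leaving out treatment1 favours lower calls among the 9 genes, as said above. The causes of the other differences were not tested. No paired analysis was possible because all treated libraries share 1 control library. TMM kept the counts of the 9 genes within 1.5 times but moved 19 of 27 x-folds beyond their intervals, and was not run for the counts of goat genes past the limits. Leaving TFCP2L1 out of the total kept 25 of 27 x-folds within their intervals. Treatment2 limits every value by its depth, and 1 control library allows no replicate check.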
